A study of Mus musculus with 25 samples.

Results

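Rapamycin given for 24 h to Tsc1-null mouse embryonic fibroblasts was compared with vehicle in the same line, across all measured genes. The members were chosen by their labels, not by any measured value: 2 arrays labelled as Tsc1-/- with 24 h of rapamycin and 3 labelled as Tsc1-/- with no treatment, which are 5 of the 25 arrays of the series. The treated cells were Tsc1-/- fibroblasts, p53+/+ and immortalized by the 3T3 protocol, held without serum with 20 nM rapamycin. The controls were the same line, held without serum for 24 h with the solvent DMSO. Beside them stand Tsc1-null cells after 2, 6 and 12 h of rapamycin (2 arrays each), Tsc2-/- p53-/- fibroblasts after 24 h of rapamycin (2 arrays) or vehicle (3 arrays), and the Tsc2+/+ p53-/- wild-type line with vehicle (3 arrays), a littermate of the Tsc2-null line. Plates of 10 cm were deprived of serum once the cells were 70% confluent, and each array holds RNA of 1 plate. The time without serum is listed as 24 h for every group, the shorter rapamycin times included. Each genotype is 1 line, so genotype, p53 state and line cannot be told apart, and p-values measure the spread between plates. The titles, sources and time labels of the treated arrays give 24 h while their free-text field gives 14 h, and those of the 12 h arrays give 12 h and 11 h. For the Tsc2-null arrays of 24 h the titles and the free-text field both give 24 h. The hours of the titles are used here.

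Tsc1 and Tsc2 form, with Tbc1d7, the complex that switches off the small GTPase Rheb and so holds back mTORC1, a kinase complex that drives protein, lipid and nucleotide synthesis and slows lysosomal breakdown. Without Tsc1 the complex is unstable and mTORC1 stays active when growth factors are withdrawn. Rapamycin binds the immunophilin Fkbp1a, and the pair blocks part of the output of mTORC1. Known outputs at the level of transcription run through HIF (glycolysis and hypoxia genes), the SREBP factors (sterol and fatty acid synthesis) and ATF4 (amino acid supply), while active mTORC1 also dampens signalling from growth factor receptors.

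Levels are the deposited log2 intensities, on which 1 unit is a 2-fold step, and differences are 24 h of rapamycin minus vehicle with the standard error (SE) of the fit. A gene was called, and is said to have risen or fallen, at a Benjamini-Hochberg adjusted p under 0.05 in limma over 18193 genes. Named genes were picked for a large difference, a small p or a role. Arrays that do not overlap describe the values of such genes and are no test. Array medians over the series lay between 6.26 and 6.41. The 2 treated arrays correlated at 0.9957 across probe sets, with an SD of their difference of 0.218, and the vehicle pairs at 0.9962 to 0.9978 with SDs of 0.151 to 0.201. Tsc1 itself read 6.95 and 6.96 on the treated arrays and 6.92, 7.02 and 7.38 on the vehicle arrays, against 8.19 ± 0.12 in the wild-type line (SD, n = 3), and its difference of -0.16 ± 0.13 was not called (adjusted p = 0.46). Tsc2 read 9.58 and 9.79 with rapamycin and 9.70, 9.72 and 9.64 with vehicle. The labels do not place these probe sets inside or outside the deleted part, so they do not check the genotype. The 11 fibroblast markers had a summed level, the log2 of their summed linear values, of 16.59 to 16.60 with rapamycin and 16.24 to 16.36 with vehicle, and none averaged under 6.5, a level near the background of the arrays. The lists of markers of other cell types, of 5 to 8 markers each, had summed levels of 7.83 to 10.49 with rapamycin and 8.87 to 10.50 with vehicle, and 4 to 6 markers of each list averaged under 6.5. Sums over different probes cannot be set against each other, so these levels do not measure how pure the culture was. In bulk RNA, fewer cells of a kind and less RNA per cell cannot be told apart.

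After 24 h of rapamycin, 14 of 15 genes of contraction and YAP, 10 of 15 chemokines and cytokines and 12 of 22 FOXO targets and growth factor receptors rose, and most measured genes of glycolysis, the hypoxia response, sterol and fatty acid synthesis, amino acid supply, the proteasome and the lysosomal proton pump fell. In all 2109 genes rose, 11.6% of those tested, and 3269 fell, 18.0%. Every count of list members at 24 h is to be read beside these shares. At least 2-fold changes were fewer, with 199 genes higher and 223 lower. Differences ran from -3.55 to 3.73 with a median of -0.008 over all genes. The 3269 that fell thus outnumbered those that rose, while few of either moved far.

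**Figure D1:**
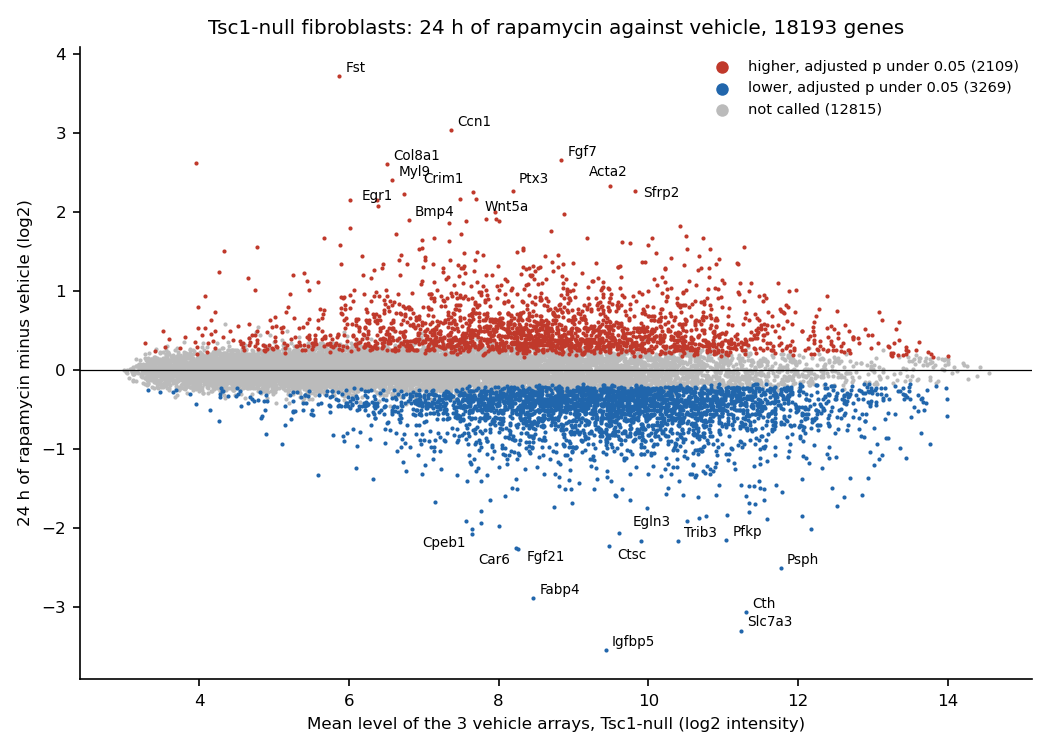
Each point is 1 of 18193 genes, with the mean log2 level on the 3 vehicle arrays across and the log2 difference of 24 h of rapamycin minus vehicle upward. Called genes are red (2109 higher) or blue (3269 lower), uncalled genes grey, and the 24 labelled genes run from Igfbp5 at -3.55 to Fst at 3.73.

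The gene with the largest rise, among those that read at least 7 in the higher group and did not overlap between groups, was Fst, which encodes follistatin, a secreted antagonist of activins. Fst read 9.35 and 9.84 on the treated arrays and 5.97, 5.72 and 5.92 on the vehicle arrays, a difference of 3.73 ± 0.15 (adjusted p = 6.9e-14), or 13.2-fold, from a vehicle level near background. Ccn1, a matricellular protein and target of the coactivator YAP, read 10.21 and 10.59 with rapamycin against 7.34, 7.20 and 7.56 with vehicle, 8.21-fold higher (adjusted p = 1.6e-13). Fgf7, a growth factor that fibroblasts send to epithelium, read 11.50 and 11.50 against 8.76, 8.83 and 8.93, 6.31-fold higher (adjusted p = 2.4e-14). In each of these genes both treated arrays stood more than 2 units above the highest vehicle array. Further secreted proteins were in the leading set. Bmp4, a bone morphogenetic protein, read 9.59 and 9.73 with rapamycin against 7.28, 7.46 and 7.72 with vehicle, and Wnt5a, a ligand of noncanonical Wnt signalling, 9.84 and 9.90 against 7.70, 7.58 and 7.81. Sfrp2, a secreted modulator of Wnt signalling, read 12.03 and 12.16 against 9.83, 9.74 and 9.89. Crim1, a membrane protein that binds bone morphogenetic proteins, read 9.70 and 10.15 against 7.58, 7.51 and 7.91, and Ptx3, a secreted pentraxin of innate immunity, 10.19 and 10.73 against 8.07, 8.08 and 8.41. The differences of these 5 genes lay between 2.17 and 2.27. The other leading rises were Col8a1, a chain of collagen VIII (2.61 ± 0.09), the contractile genes Myl9 (2.41 ± 0.13) and Acta2 (2.33 ± 0.08), and the immediate early factor Egr1 (2.23 ± 0.09). With all probe sets of a gene averaged, the differences were 1.70 for Col8a1, 1.10 for Ptx3 and 0.81 for Acta2. In the authors' deposited table of ratios they were 1.24 for Fst, 1.30 for Col8a1 and 1.46 for Egr1.

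The gene with the largest fall by the same rule was Igfbp5, a secreted binding protein of insulin-like growth factors. Igfbp5 read 5.89 and 5.87 on the treated arrays, near background, and 9.50, 9.41 and 9.37 on the vehicle arrays, and so fell by 3.55 ± 0.12 on the log2 scale (adjusted p = 4.7e-15), or 11.7-fold. Slc7a3, a transporter of cationic amino acids, read 7.81 and 8.06 against 11.26, 11.29 and 11.16, 9.85-fold lower (adjusted p = 4.4e-15). Cth, which makes cysteine from cystathionine, read 8.23 and 8.28 against 11.36, 11.28 and 11.30, 8.32-fold lower (adjusted p = 4.7e-15). Psph, the last enzyme of serine synthesis, read 9.04 and 9.48 with rapamycin and 11.75, 11.72 and 11.85 with vehicle. Of these 4 genes, 3 serve amino acid supply. Fabp4, a fatty acid binding protein known from adipocytes, read 5.58 and 5.56 on the treated arrays against 8.30, 8.47 and 8.62 on the vehicle arrays. Fabp4 was also on the list of adipocyte markers, whose summed level was 7.83 to 7.99 with rapamycin and 8.87 to 9.09 with vehicle, and of the 5 markers measured it was the one above 6.5 under vehicle. Fgf21, a hormone of metabolic stress, read 6.15 and 5.85 against 8.14, 8.16 and 8.47, and Car6, a secreted carbonic anhydrase, 6.26 and 5.69 against 8.16, 8.10 and 8.42. For Fgf21 and Car6 the treated arrays lay at or below 6.5. The lysosomal protease Ctsc (-2.23 ± 0.11), the pseudokinase Trib3 (-2.17 ± 0.11), the prolyl hydroxylase Egln3 (-2.16 ± 0.09), the phosphofructokinase Pfkp (-2.15 ± 0.10) and the RNA-binding protein Cpeb1 (-2.08 ± 0.16) closed the list of 12. With all probe sets of a gene averaged, the differences were -1.88 for Igfbp5, -1.39 for Fabp4 and -1.01 for Ctsc. In the authors' deposited table of ratios they were -1.74 for Igfbp5, -1.35 for Fabp4, -0.26 for Fgf21, -0.23 for Car6 and -0.28 for Cpeb1, the last not called.

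**Figure D2:**
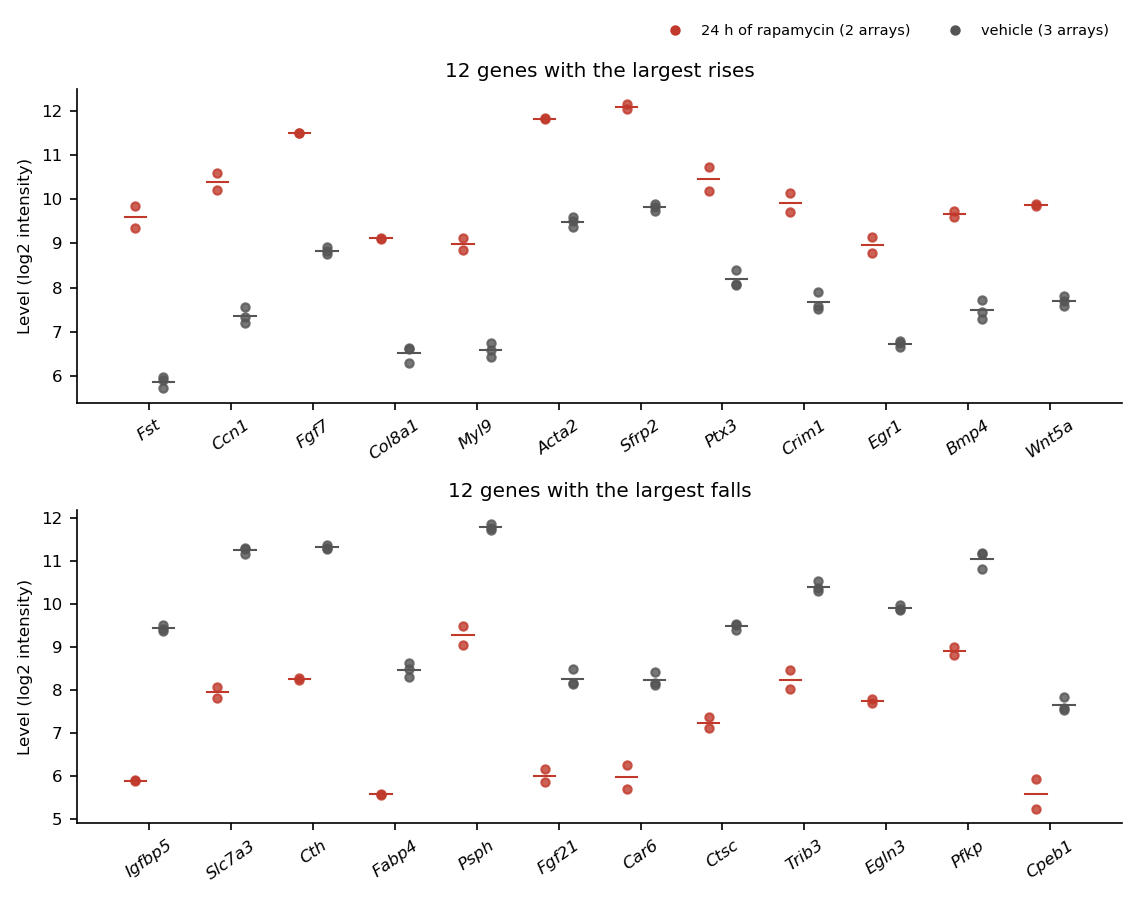
Log2 level on each array of the 12 genes with the largest rises (top) and falls (bottom), with the 2 arrays of 24 h of rapamycin in red on the left of each pair, the 3 vehicle arrays in grey on the right and bars at group means. The 24 genes were chosen among those with no overlap between treated and vehicle arrays.

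Genes of the mTOR pathway itself moved in both directions. Of 17 measured genes of the TSC and mTOR complexes, 5 rose and 6 fell, against 11.6% and 18.0% of all genes, with a median of -0.13. Rictor, which defines mTORC2, read 10.31 and 10.47 with rapamycin against 9.36, 9.29 and 9.45 with vehicle and rose by 1.02 ± 0.08 (adjusted p = 3.9e-09). Rheb-like Rhebl1 rose by 0.84 and Rps6, the ribosomal protein that S6 kinase modifies, by 0.84. Falls were smaller, at -0.50 for Tbc1d7, -0.45 for the mTORC1 inhibitor Akt1s1 and -0.57 for the translation repressor Eif4ebp1. Among 19 upstream regulators 9 fell and 1 rose, with a median of -0.27. Ddit4, a stress-induced inhibitor of mTORC1 and HIF target, read 10.89 and 11.13 with rapamycin against 12.71, 12.57 and 12.56 with vehicle, 3.04-fold lower. Sesn2, a leucine sensor induced by ATF4, read 7.28 and 7.48 against 8.92, 8.84 and 8.92, 2.86-fold lower. In both genes every treated array was below every vehicle array. The folliculin partner Fnip2 (-1.21) and the Rag GTPase genes Rragc (-0.69) and Rragd (-0.90) also fell, while the arginine sensor Castor1 rose (0.54). These genes place amino acid signals on the lysosome.

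Glycolysis and the hypoxia response fell. Of 18 genes of glycolysis and glucose uptake 12 fell, against 18.0% of all genes, and the others were not called, with a median difference of -0.69. Slc2a1, the main glucose transporter of fibroblasts, read 10.05 and 10.11 with rapamycin against 11.58, 11.50 and 11.36 with vehicle. Hk2, which traps glucose as its phosphate, read 8.82 and 8.97 against 10.49, 10.52 and 10.40. The phosphofructokinase Pfkp, the committing step, read 8.80 and 8.99 against 11.18, 11.15 and 10.80, 4.45-fold lower (adjusted p = 8.9e-13). Each of these genes fell at least 2-fold with no overlap. Lower down the pathway the falls were smaller, at -0.79 for Tpi1, -0.86 for Pgam1, -0.59 for the pyruvate kinase gene Pkm and -0.93 for the lactate dehydrogenase gene Ldha. Pdk1, the gene of a pyruvate dehydrogenase kinase, fell by 0.91. Of 19 HIF targets outside glycolysis 17 fell and the others were not called, with a median of -0.85. Egln3, one of the hydroxylases that mark HIF for breakdown, read 7.68 and 7.79 with rapamycin against 9.87, 9.98 and 9.85 with vehicle, 4.48-fold lower. Ero1a, an oxidase of the endoplasmic reticulum, read 10.06 and 10.28 against 12.26, 12.20 and 12.08, and Car9, a cell surface carbonic anhydrase, 9.01 and 8.62 against 10.64, 10.64 and 10.76. Their treated arrays lay at least 1.5 units below the vehicle arrays. Vegfa, the vascular growth factor, fell by 0.84 ± 0.10, Higd1a, a mitochondrial protein, by 1.38, and Bnip3, a mitophagy receptor, by 1.20. Hif1a, which encodes the regulated subunit of HIF, read 12.27 and 12.34 with rapamycin against 12.43, 12.25 and 12.25 with vehicle and was not called (adjusted p = 0.98). The letters ACGTG, the core that HIF binds, occur in the promoter windows of Egln3 and Hk2, which are shown because both genes fell by over 1.5 units. Windows run from 250 bases before to 50 after the RefSeq start in build GRCm38.p6, on the minus strand for both, with the motif or its complement in capitals (Egln3 at chr12:54203825-54204124, Hk2 at chr6:82774405-82774704).
Egln3: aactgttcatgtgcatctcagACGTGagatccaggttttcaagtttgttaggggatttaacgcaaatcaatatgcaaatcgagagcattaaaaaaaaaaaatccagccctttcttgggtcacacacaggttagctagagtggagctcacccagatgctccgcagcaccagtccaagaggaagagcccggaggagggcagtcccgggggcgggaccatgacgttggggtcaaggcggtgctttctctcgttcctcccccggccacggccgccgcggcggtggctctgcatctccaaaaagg
Hk2: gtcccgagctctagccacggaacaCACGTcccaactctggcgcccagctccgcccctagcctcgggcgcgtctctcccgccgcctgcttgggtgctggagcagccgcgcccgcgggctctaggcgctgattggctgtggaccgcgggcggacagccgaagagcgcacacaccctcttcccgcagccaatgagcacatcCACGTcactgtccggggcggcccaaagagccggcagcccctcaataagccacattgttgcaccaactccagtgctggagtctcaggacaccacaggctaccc
Of the genes with a window, 8 of 12 lower ones in glycolysis (66.7%) and 11 of 15 lower ones among other HIF targets (73.3%) held ACGTG, against 26.2% of 14368 genes on the array. Over all members, called or not, it was 12 of 17 in each list (70.6%). The letters were also found in other lists, in 9 of 13 lower lysosomal genes (69.2%) and 6 of 10 lower genes of the proton pump (60.0%). A match is a description of letters and not of binding.

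Lipid synthesis fell in both branches. Of 20 genes of sterol synthesis and uptake 19 fell and 1 was not called, with a median of -0.67. Mvd, which makes the isoprene unit, read 9.62 and 9.70 with rapamycin against 10.63, 10.71 and 10.68 with vehicle. Cyp51, a demethylase of lanosterol, read 11.18 and 11.18 against 12.04, 12.01 and 12.06, and Sc5d, a late desaturase, 10.82 and 10.87 against 11.87, 11.88 and 11.89. The 2 groups did not overlap for these genes, which stood 1.81-fold to 2.05-fold lower. Sqle, the squalene epoxidase, fell by 0.56. Srebf2, the master factor of the pathway, differed by -0.07 ± 0.09 and was not called (adjusted p = 0.61). Of 17 genes of fatty acid synthesis and desaturation 13 fell and the others were not called, with a median of -0.54. Acss2, which makes acetyl-CoA from acetate, read 8.07 and 8.14 with rapamycin against 9.79, 9.74 and 9.73 with vehicle, 3.14-fold lower (adjusted p = 9.8e-13). Scd1, the stearoyl-CoA desaturase, read 11.94 and 12.15 against 13.15, 13.19 and 13.02, and Fasn, the fatty acid synthase, 10.80 and 10.93 against 11.59, 11.40 and 11.26. Elovl6, an elongase, fell by 0.94 and Fads2, a desaturase of polyunsaturated chains, by 1.00. Srebf1, the factor that drives this branch, differed by -0.16 ± 0.07 and was not called (adjusted p = 0.079). The sterol regulatory letters TCACNCCAC were in the window of 1 of 15 lower sterol genes (6.7%), against 1.4% of all. Of 9 measured pentose phosphate genes 4 fell and 2 rose, against 18.0% and 11.6% of all genes. Without the second treated or the second vehicle array 1 rose. Taldo1, the transaldolase, fell by 1.00 and Pgd, which makes NADPH, by 0.57, whereas H6pd, a related enzyme in the endoplasmic reticulum, rose by 0.62.

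Amino acid supply had the lowest median of any list. Of 29 ATF4 targets and genes of serine, folate and amino acid supply 26 fell and 1 rose, with a median of -1.37. Asns, the asparagine synthetase, read 10.74 and 10.85 with rapamycin against 12.58, 12.50 and 12.47 with vehicle, 3.30-fold lower. Psat1, an aminotransferase of serine synthesis, read 11.49 and 11.62 against 12.93, 12.90 and 12.95, and Mthfd2, a mitochondrial folate enzyme, 9.75 and 10.00 against 11.28, 11.37 and 11.39. Chac1, which degrades glutathione, read 8.99 and 9.42 against 11.02, 11.00 and 11.14. In all of these genes both treated arrays were lower than every vehicle array. The stress factors Ddit3 (-1.58 ± 0.09) and Atf5 (-1.64 ± 0.10), the alanine transaminase Gpt2 (-1.85 ± 0.08), the mitochondrial serine hydroxymethyltransferase Shmt2 (-1.47 ± 0.09) and the leucine transporter Slc7a5 (-1.61 ± 0.11) fell as well. Atf4 itself fell by 0.94 ± 0.07 (adjusted p = 1.9e-09). Of 18 cytosolic aminoacyl-tRNA synthetases, which load amino acids onto tRNA, 16 fell and 1 rose, with a median of -0.86. Cars (for cysteine) read 9.13 and 9.43 with rapamycin against 10.61, 10.70 and 10.57 with vehicle, and Gars (for glycine) 11.88 and 11.97 against 13.04, 12.99 and 12.86. Qars, for glutamine, was the member that rose, at 11.36 and 11.46 against 10.75, 10.75 and 10.69. Its arrays did not overlap either, so the synthetases did not all move one way. Of 14 purine and pyrimidine genes 3 rose and 6 fell, against 11.6% and 18.0% of all genes. Ctps, which makes CTP, rose by 1.41 ± 0.07 and Paics by 0.55, while Pfas fell by 0.58. The 6 falls of this list became 3 without the first treated array. The letters TGATGNAA, the composite of ATF4 and C/EBP, stand in the windows of Trib3 and Asns, which are shown because both genes are known ATF4 targets that fell by over 1.5 units. Both lie on the minus strand of GRCm38.p6 (Trib3 at chr2:152344011-152344310, Asns at chr6:7693160-7693459) and the match is in capitals.
Trib3: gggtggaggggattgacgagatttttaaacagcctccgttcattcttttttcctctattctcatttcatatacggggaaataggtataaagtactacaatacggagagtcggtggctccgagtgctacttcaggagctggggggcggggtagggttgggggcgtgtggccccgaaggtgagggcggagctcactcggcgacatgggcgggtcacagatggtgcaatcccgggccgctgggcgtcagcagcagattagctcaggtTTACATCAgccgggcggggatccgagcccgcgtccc
Asns: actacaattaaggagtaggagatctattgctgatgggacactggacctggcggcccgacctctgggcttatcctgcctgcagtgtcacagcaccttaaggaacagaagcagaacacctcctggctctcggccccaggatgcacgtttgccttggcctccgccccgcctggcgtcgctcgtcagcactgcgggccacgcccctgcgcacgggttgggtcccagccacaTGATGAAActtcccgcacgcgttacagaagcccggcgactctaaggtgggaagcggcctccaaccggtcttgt
The letters were found in either orientation in 8 of 24 lower genes of the ATF4 list (33.3%) and 5 of 10 lower synthetases (50%), against 3.2% of genes on the array. Over all members it was 8 of 27 (29.6%) and 5 of 12 (41.7%).

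Genes of the lysosome and of its proton pump fell. Of 14 subunits and helpers of the vacuolar proton pump, which acidifies lysosomes, 13 fell and 1 was not called, with a median of -0.59. Atp6v0b read 10.29 and 10.24 with rapamycin against 11.62, 11.66 and 11.85 with vehicle, and Atp6v1h 9.60 and 9.71 against 10.88, 10.89 and 10.90. Atp6v1d read 10.11 and 10.12 against 11.11, 11.14 and 11.06. The 3 subunits fell 1.99-fold to 2.72-fold and their arrays did not overlap. Of 23 lysosomal enzymes and membrane proteins 16 fell and the others were not called, with a smaller median of -0.25. Gla, the alpha-galactosidase, read 9.47 and 9.62 with rapamycin against 11.34, 11.27 and 11.40 with vehicle, 3.47-fold lower (adjusted p = 1.2e-11), and Neu1, a sialidase, 8.04 and 8.16 against 9.38, 9.47 and 9.51. Both fell more than the abundant proteases Ctsd (-0.38) and Ctsb (-0.34). Autophagy and the MiT factors moved both ways, with 4 of 21 higher and 8 lower, against 11.6% and 18.0% of all genes. The receptor Sqstm1 fell by 0.62, while Map1lc3a, which coats autophagosomes, rose by 0.68, the kinase gene Ulk2 by 0.64 and Wipi1 by 0.57. The 8 falls became 5 without the first treated array. Tfeb, a lysosomal transcription factor that mTORC1 holds in the cytoplasm, differed by 0.18 ± 0.10 and was not called (adjusted p = 0.21). Its family binds TCACGTGA, which contains ACGTG and occurs at 2 places in the window of Gla, shown because Gla had the largest fall of the list (chrX:134600956-134601255, minus strand, GRCm38.p6).
Gla: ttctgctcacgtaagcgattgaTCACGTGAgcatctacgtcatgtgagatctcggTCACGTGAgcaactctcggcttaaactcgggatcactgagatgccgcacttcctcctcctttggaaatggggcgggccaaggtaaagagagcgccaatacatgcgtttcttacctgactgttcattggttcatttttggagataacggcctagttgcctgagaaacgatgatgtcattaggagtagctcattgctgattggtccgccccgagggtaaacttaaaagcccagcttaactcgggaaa
This box was in the windows of 4 of 13 lower lysosomal genes (30.8%) and 3 of 10 lower pump genes (30.0%), against 1.6% of genes on the array. Over all members with a window it was 5 of 20 lysosomal genes, and all 10 pump genes with a window were lower.

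Protein turnover and folding also fell. All 24 measured proteasome genes fell by the probe set used for each, with a median of -0.57. Probe sets of Psmb1 were called in opposite directions. Psmd14, the deubiquitinase of the lid, read 11.38 and 11.49 with rapamycin against 12.26, 12.41 and 12.58 with vehicle, and Psmb5, a catalytic subunit, 12.01 and 12.15 against 12.57, 12.62 and 12.68. The falls of the list ran from -0.98 to -0.23. Of 19 chaperones and unfolded protein response genes of the endoplasmic reticulum 16 fell and 1 rose, with a median of -0.38. Among those that fell were Herpud1 (-0.56 ± 0.08), Hsp90b1 (-0.49 ± 0.07) and the chaperone Hspa5 (-0.40 ± 0.07). With all probe sets averaged Hspa5 differed by -0.13 and was not called, and in the authors' deposited table of ratios by -0.55. Of 15 NRF2 targets and glutathione genes 11 fell and 1 rose, with a median of -0.62. Hmox1, which degrades heme, read 10.85 and 11.06 with rapamycin against 12.52, 12.47 and 12.35 with vehicle. Gsta4, a glutathione transferase, read 11.27 and 11.28 against 12.80, 12.80 and 12.97. Both stood at high levels under vehicle and fell more than 2-fold. The cystine transporter Slc7a11 (-1.5 ± 0.17) and Gclc, the first enzyme of glutathione synthesis (-1.11 ± 0.11), fell too, while the NRF2 gene Nfe2l2 differed by 0.07 ± 0.09 and was not called (adjusted p = 0.68). In the authors' deposited table of ratios Slc7a11 differed by -0.33 and Gclc by -1.13. With all probe sets averaged, the differences were -1.82 for Slc7a11 and -0.88 for Gclc.

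Genes of ribosome making split from those of ribosomal proteins. Of 28 MYC and ribosome biogenesis genes 14 fell and 5 rose, against 18.0% and 11.6% of all genes, with a median of -0.22. Without the first treated array the 14 falls became 7 and the median -0.11. Myc read 10.30 and 10.73 with rapamycin against 9.37, 9.43 and 9.40 with vehicle, 2.17-fold higher (adjusted p = 4.6e-09), and Odc1, its target in polyamine synthesis, 10.15 and 10.65 against 9.50, 9.57 and 9.67. Falls included the biogenesis factors Wdr12 (-0.89 ± 0.11), Nop16 (-0.70 ± 0.10) and Gnl3 (-0.57 ± 0.08). So Myc and Odc1 rose, while the biogenesis factors that fell did so by under 1 unit. Among 14 cytosolic ribosomal proteins and elongation factors 7 rose and the others were not called, by small amounts with a median of 0.16, such as 0.41 for the elongation factor Eef1b2. Of 11 initiation factors 7 fell and 1 rose, with a median of -0.36, or -0.23 without the first treated array. Eif4b, a helicase cofactor, rose by 0.78 ± 0.07, and the cap-binding protein Eif4e fell by 0.41. Respiration fell modestly, with 18 of 25 genes of oxidative phosphorylation and the TCA cycle lower, the others not called and a median of -0.36. Idh3a, a subunit of isocitrate dehydrogenase, read 9.86 and 10.06 with rapamycin against 11.14, 11.09 and 11.21 with vehicle. Atp5g1, which forms part of the rotor of ATP synthase, read 10.93 and 11.06 against 12.14, 12.10 and 12.08, and the catalytic subunit Atp5b fell by 0.31.

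Receptors and feedback genes of growth factor signalling rose. Of 22 FOXO targets and growth factor receptors 12 rose and 1 fell, with a median of 0.45, against 11.6% and 18.0% of all genes. Igf1r, the receptor of insulin-like growth factors, read 10.00 and 10.12 with rapamycin against 8.65, 8.67 and 8.54 with vehicle, 2.71-fold higher (adjusted p = 1.2e-10). The adaptor Irs1 read 9.79 and 9.89 against 8.82, 8.94 and 9.04, and Pdgfra, a receptor of platelet-derived growth factor, 12.72 and 12.61 against 11.90, 11.84 and 11.86. The groups did not overlap for these genes. The insulin receptor Insr rose by 0.72, Pdgfrb by 0.71 and Erbb2 by 0.53. Sesn3 was the member that fell (-0.36 ± 0.09). Of 24 immediate early and ERK feedback genes 14 rose and 1 fell, with a median of 0.38. Egr1 read 8.78 and 9.14 with rapamycin, 6.75, 6.80 and 6.65 with vehicle and 11.90 ± 0.04 in wild-type cells with vehicle (SD, n = 3). Its treated level thus stood above vehicle and below wild type, a comparison of lines with different p53 states that was not tested. Dusp6, a phosphatase that turns off ERK, rose by 1.27 and Spry2, an inhibitor of receptor signalling, by 1.09, and Jun rose by 0.80. In the authors' deposited table of ratios Dusp6 differed by 0.02 and was not called, while Spry2 differed by 0.69 and Jun by 1.07. With all probe sets of a gene averaged, the differences were 1.27 for Dusp6, 0.56 for Spry2 and 0.60 for Jun. Genes of insulin-like growth factor, BMP and Id proteins split, with 8 of 18 higher and 5 lower. Beside Bmp4, the BMP target Smad6 rose by 1.33 ± 0.12 and Id3 by 0.85. The 5 falls of this list became 3 without the first or without the second vehicle array.

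Contractile genes gave the largest shift of any list. Of 15 smooth muscle contractile genes and YAP targets 14 rose and 1 was not called, with a median of 1.56. Acta2, the smooth muscle actin of myofibroblasts, read 11.81 and 11.83 with rapamycin against 9.50, 9.37 and 9.60 with vehicle, 5.02-fold higher (adjusted p = 4.7e-15), and 13.74 ± 0.06 in wild-type cells. Myl9, a light chain of myosin, read 8.86 and 9.13 against 6.58, 6.43 and 6.74 and 10.56 ± 0.10 in wild type. Tagln, which binds actin, read 8.95 and 9.0 against 7.40, 7.18 and 7.46 and 12.21 ± 0.07 in wild type. For all of these genes the treated arrays stood above the vehicle arrays and below the wild-type mean, the last as a description of levels. In the authors' deposited table of ratios the differences from vehicle were 2.36 for Acta2, 1.66 for Myl9 and 0.46 for Tagln. Cnn2 (1.56 ± 0.08), the YAP regulator Amotl2 (1.62 ± 0.09), the receptor kinase Axl (1.04 ± 0.07) and Ankrd1 (1.65 ± 0.13) rose as well. Of 27 collagen and matrix genes 11 rose and 2 fell, with a median of 0.22. Thbs1 and Thbs2, the thrombospondins, rose by 1.45 and 1.54, the proteoglycan Bgn by 1.35 and the crosslinking enzyme Loxl1 by 1.18, against 0.39 for the abundant collagen gene Col1a1. The adhesion modulator Tnc fell by 0.81. Chemokines and cytokines rose in 10 of 15, and the other members were not called. Cxcl5, which attracts neutrophils, read 10.90 and 10.80 with rapamycin against 8.71, 8.71 and 9.18 with vehicle. Csf1, the macrophage growth factor, read 10.84 and 11.02 against 9.46, 9.58 and 9.81, and Il6 9.23 and 9.21 against 8.05, 8.02 and 8.45. These 3 genes rose at least 2-fold. Fibroblast markers were higher in 7 of 11, beside their summed levels given above, with Prrx1, a mesenchymal factor, at 0.73 ± 0.09. The part of that shift in the matrix and contractile results was not tested.

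Cell cycle genes rose slightly at 24 h. Of 26 mitosis genes 15 rose and 1 fell, with a median of 0.35, and of 26 DNA replication genes 15 rose and 3 fell, with a median of 0.31 and 1 fall in place of 3 without the first treated array. Ube2c, which feeds the anaphase ubiquitin ligase, read 11.15 and 11.41 with rapamycin against 10.13, 10.31 and 10.30 with vehicle, 2.05-fold higher (adjusted p = 2.5e-08). Nusap1, a spindle protein, read 9.75 and 10.15 against 8.80, 8.98 and 9.06. Mcm5, part of the replicative helicase, read 10.28 and 10.56 against 9.28, 9.39 and 9.48, and its partner Mcm7 11.77 and 12.14 against 10.89, 10.92 and 10.97. The second treated array was the higher one for these 4 genes. Without it, 9 mitosis and 7 replication genes rose, with medians of 0.16 in both, and without the first treated array the medians were 0.52 for mitosis and 0.43 for replication. Rrm2, which makes deoxynucleotides, went the other way, at 6.80 and 7.32 with rapamycin against 7.99, 8.05 and 8.37 with vehicle. Among 17 G1 cyclins and CDK inhibitors 6 rose and 4 fell, against 11.6% and 18.0% of all genes. Ccnd1, the G1 cyclin, rose by 1.07 ± 0.11 and its kinase Cdk6 by 0.88, while Ccnd2 fell by 1.06. Cdkn1a, the inhibitor p21, read 8.42 and 8.47 against 9.75, 9.77 and 9.77, 2.49-fold lower. Cdkn1a is also a target of p53, which this line keeps. Of 19 p53 targets 11 fell and 2 rose, with a median of -0.29. With the replicate number as a block 7 of them fell, and with any 1 array left out 8 to 10. Btg2, an antiproliferative factor, fell by 1.26 and the stress gene Gadd45a by 0.80, and the death receptor Fas rose by 0.75. In Tsc2-null cells, which lack p53, 10 of the 19 targets fell and 3 rose, with a median of -0.47, against 18.1% and 17.4% of all genes in that line. There Cdkn1a differed from vehicle by -2.06. The part of p53 in these falls was not tested. The letters TTTGAA, the homology region of cell cycle genes, stand in the window of Ube2c, shown as the gene of the mitosis list with the smallest p (chr2:164769679-164769978, plus strand, GRCm38.p6).
Ube2c: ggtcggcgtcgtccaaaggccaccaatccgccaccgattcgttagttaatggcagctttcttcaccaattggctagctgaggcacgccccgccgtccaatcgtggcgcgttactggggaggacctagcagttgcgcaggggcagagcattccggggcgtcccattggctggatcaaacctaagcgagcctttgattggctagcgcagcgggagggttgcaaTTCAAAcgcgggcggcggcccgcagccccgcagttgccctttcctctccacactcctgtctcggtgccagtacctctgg
In either orientation they were in 10 of 14 higher mitosis genes (71.4%) and 1 of 11 higher replication genes (9.1%), against 15.7% of genes on the array. The share was the same over all mitosis genes, called or not, at 15 of 21 (71.4%).

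Remaining lists gave fewer or mixed calls. Of 16 circadian clock genes 8 fell and 2 rose, with a median of -0.32. Bhlhe40, a repressor that HIF also induces, read 8.42 and 8.80 with rapamycin against 10.59, 10.58 and 10.38 with vehicle, and Ciart, a repressor of the clock, 7.51 and 7.58 against 9.05, 8.94 and 8.82. Nr1d2, a nuclear receptor of the clock, rose by 0.86. Of 17 genes of MondoA, PGC-1 and fatty acid oxidation 3 rose and 6 fell. Mlx, the partner of MondoA, fell by 1.23 ± 0.11, and Pdk4 rose by 1.00. Txnip, a glucose-induced arrestin and target of MondoA, differed by 0.22 ± 0.09 and was not called (adjusted p = 0.072). The interferon list had 2 higher and 5 lower of 18, against 11.6% and 18.0% of all genes. Its 5 falls became 2 or 3 without either treated array or the third vehicle array. Ifit2, an interferon-induced protein that binds RNA, rose by 0.50. Some calls of a single member against the trend of a list were lost without single arrays. With any 1 of the 5 arrays left out, the 1 rise among chaperones became 0 or 1, the 1 fall of the mitosis list 0 to 2 and that of the immediate early list 0 to 3, while the 1 rise among ATF4 targets became 1 or 2.

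**Figure D3:**
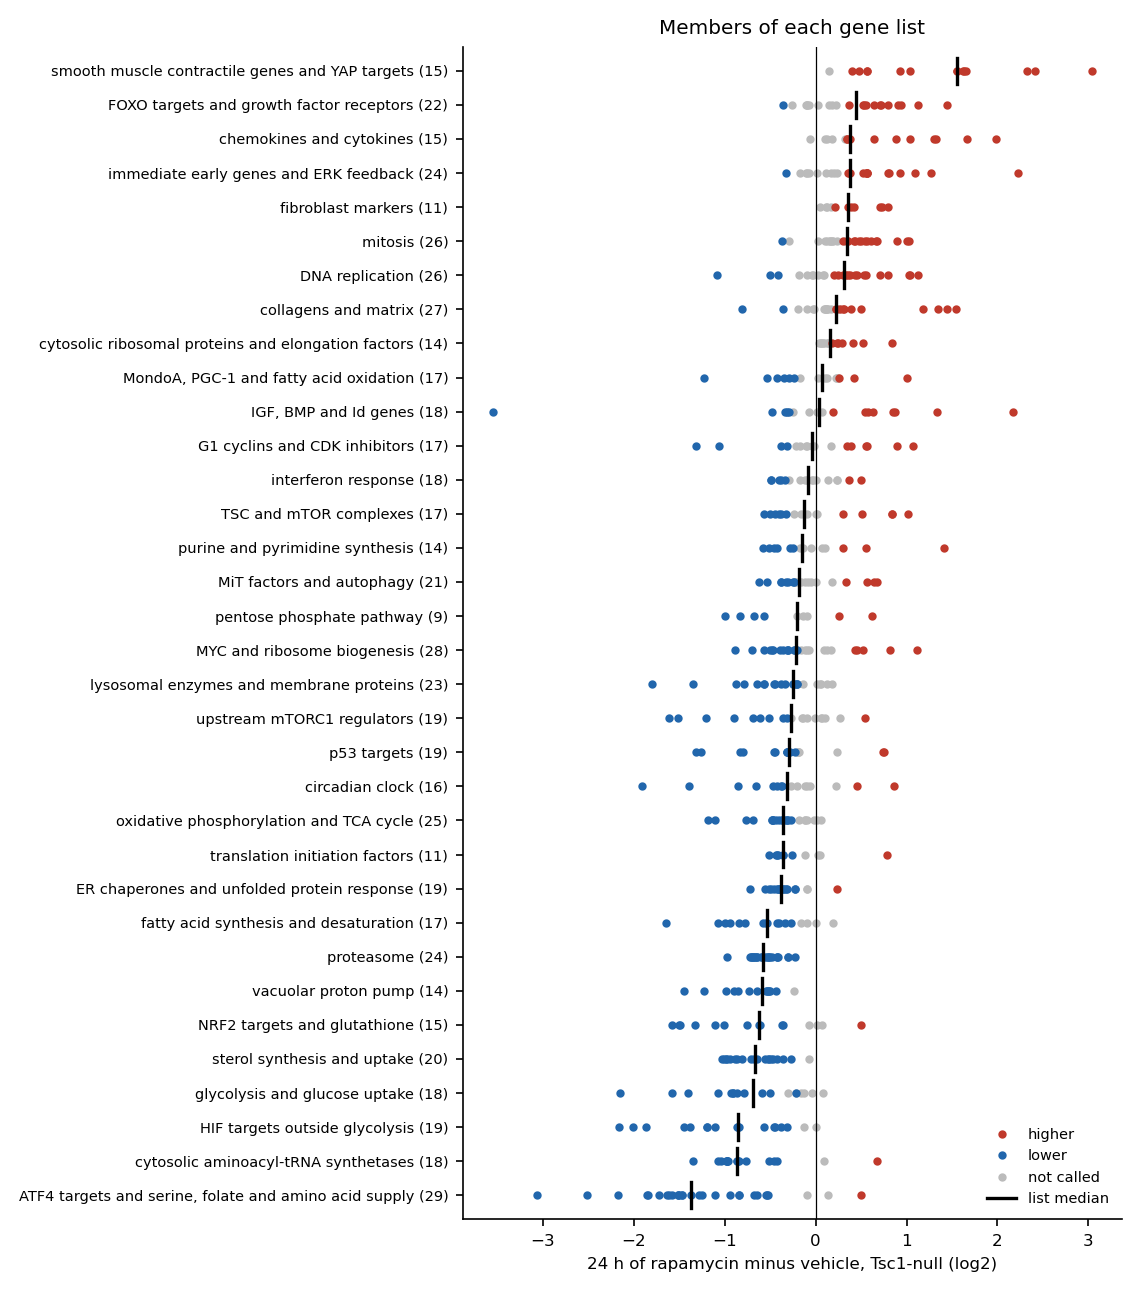
Each point is 1 gene of a list, at its log2 difference of 24 h of rapamycin minus vehicle in Tsc1-null cells, with called rises red, called falls blue, uncalled genes grey and the list median as a black bar. Lists are sorted by median, from the ATF4 list at -1.37 to the contractile list at 1.56, with the number of measured genes in brackets.

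The earlier times show when each group moved, and all of them share the vehicle arrays with the 24 h comparison. At 2 h 354 genes were higher (1.95%) and 240 lower (1.32%), at 6 h 1728 (9.5%) and 2371 (13.0%), and at 12 h 2192 (12.0%) and 2127 (11.7%). The 594 genes called at 2 h were 348 without the second vehicle array, 372 with the replicate number as a block and 936 after quantile normalization. Of the immediate early list, 10 of 24 genes were already higher at 2 h, against 1.95% of all genes. Egr1 differed from vehicle by 2.36 at 2 h, 2.06 at 6 h, 2.38 at 12 h and 2.23 at 24 h, and so lay above 2 at all 4 times. By the rule of the leading genes, the largest rises at 2 h beside Egr1 were those of the ubiquitin ligase Fbxo32 (1.5), Dusp6 (1.5) and Crebrf (1.32), a regulator of CREB3 proteins. The largest falls at 2 h were those of Fgf21 (-1.34), Btg2 (-1.20), the lipid transporter Mfsd2a (-0.91) and Ndufaf4 (-0.89), an assembly factor of respiratory complex I. At 6 h HIF targets led the falls, with Ero1a at -1.80, Egln3 at -1.75 and Bhlhe40 at -1.64, beside Igfbp5 at -1.78, while Fgf7 (1.73), Tcp11l2 (1.55) and Cxcl5 (1.37) rose beside Egr1. Slc2a1 was at -0.21 at 2 h and at -1.56 at 6 h, -1.27 at 12 h and -1.40 at 24 h. Its fall was thus as large at 6 h as later. Among ATF4 targets, Cth differed by -0.19 at 2 h, -1.61 at 6 h, -2.97 at 12 h and -3.06 at 24 h, and Slc7a3 by 0.16, -0.61, -2.48 and -3.30 at the same times. At 12 h Cth, Igfbp5, Slc7a3 and Psph (-2.37) had the largest falls, and Fgf7 (2.60), Fst (2.41), Egr1 and Kank3 (2.13), an ankyrin repeat protein, the largest rises. Acta2 stood further above vehicle at each later time, with 0.51 at 2 h, 1.10 at 6 h, 1.78 at 12 h and 2.33 at 24 h. Contractile genes were higher in 3 of 15 at 2 h, 11 at 6 h, 12 at 12 h and 14 at 24 h. The counts of replication genes turned over time, with 2 higher and 8 lower of 26 at 6 h, 6 and 6 at 12 h, and 15 and 3 at 24 h.

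**Figure D4:**
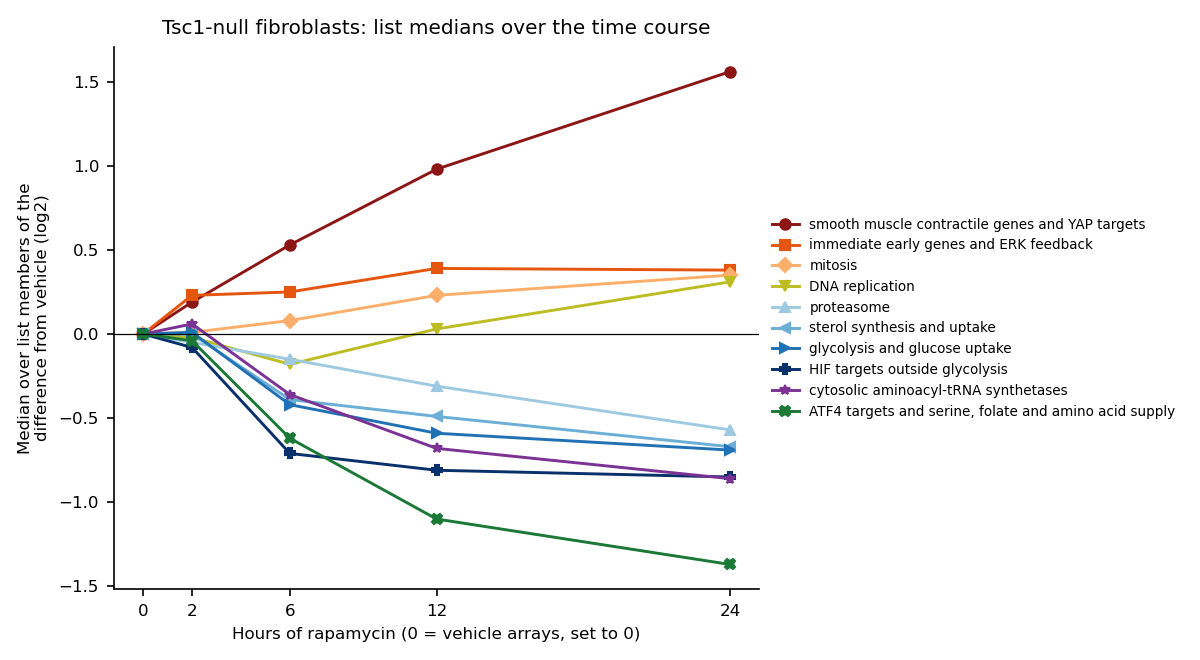
Median over the members of 10 gene lists of the log2 difference from vehicle, against hours of rapamycin in Tsc1-null cells, with vehicle set to 0. The contractile list climbs to 1.56 at 24 h and the ATF4 list declines to -1.37.

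The direct comparison of 24 h with 12 h shares no control arrays. It called 1210 genes, 258 higher at 24 h (1.42%) and 952 lower (5.23%), in the fit over all 25 arrays, and 0 when limma was fitted on these 4 arrays alone, with 2856 at an unadjusted p under 0.05. In the fit over all arrays 21.3% of the calls were higher. That split was 39.7% after quantile normalization, 44.3% in the authors' deposited table of ratios and 40.9% without the first 24 h array. The number called was 486 and 765 without the first and the second 24 h array, and 514 and 246 without the first and the second 12 h array. Fst was higher at 24 h by 1.31 ± 0.16 (adjusted p = 8.2e-05) and Ccn1 by 1.26. Fubp1, a DNA-binding regulator of Myc, was higher by 1.13, the sulfatase Arsj by 1.06 and Sfrp2 by 0.97. Lower at 24 h were Aldh1l2, a mitochondrial folate enzyme (-1.01), Nqo1, a quinone reductase and NRF2 target (-0.98), Tcim (-0.98), the protease inhibitor Slpi (-0.96) and the deacylase Aspa (-0.86). Nqo1 read 6.55 and 6.46 at 24 h and averaged 7.49 ± 0.06 at 12 h. Among the lists, 6 of 15 contractile genes and 8 of 26 replication genes were higher at 24 h than at 12 h, against 1.42% of all genes. Lower at 24 h were 10 of 23 lysosomal genes, 7 of 25 of respiration and 5 of 14 of the proton pump, against 5.23%. With 1 of the 4 arrays left out in turn, these counts ran from 3 to 6 for contraction, 3 to 11 for replication, 2 to 7 for the lysosome, 1 to 3 for respiration and stood at 0 for the pump by limma, which had 3 with the replicate block, and Aspa was not called without the second 12 h array.

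Tsc2-null fibroblasts given the same drug, for 24 h by their titles as well, against their own vehicle arrays, show which responses were shared. Their free-text field gives 24 h and that of the treated Tsc1-null arrays 14 h. If that field holds, line and time cannot be told apart. In Tsc2-null cells 3169 genes rose (17.4%) and 3293 fell (18.1%). Of the 2109 genes that rose in Tsc1-null cells 1224 also rose in Tsc2-null cells, 58.0% of the Tsc1-null and 38.6% of the Tsc2-null rises. Of the 3269 falls 1894 were shared, 57.9% of those in Tsc1-null and 57.5% of those in Tsc2-null cells. Called in the opposite direction in Tsc2-null cells were 241 of the 2109 rises and 196 of the 3269 falls. Across genes the differences of both lines correlated at 0.49, as a description over genes that are not independent. By the probe sets used, all 24 proteasome genes fell in both lines, with a median of -0.57 in Tsc1-null and -0.57 in Tsc2-null cells. The difference between the lines was called for 1 gene in each direction, or 0 to 3 with any 1 array left out. For the ATF4 list the median was -1.37 in Tsc1-null and -0.98 in Tsc2-null cells, and for the other HIF targets -0.85 in Tsc1-null and -0.55 in Tsc2-null cells. Gene by gene these lists did not differ one way between the lines. Of 29 ATF4 genes 6 had a higher and 6 a lower response in Tsc1-null cells, with a median difference of 0.02. Of 19 HIF targets 3 had a higher and 5 a lower one, with a median difference of -0.06. The response itself differed between the lines, by the interaction of line and drug in limma, for 1480 genes with a higher value in Tsc1-null cells (8.13%) and 2189 with a lower one (12.0%). Cell cycle genes were the plainest case. All 26 mitosis genes had a higher response in Tsc1-null cells, with medians of 0.35 in Tsc1-null and -1.20 in Tsc2-null cells, and so had 24 of 26 replication genes, with medians of 0.31 in Tsc1-null and -1.09 in Tsc2-null cells. Top2a, which untangles chromosomes, differed from vehicle by 0.66 in Tsc1-null and -1.51 in Tsc2-null cells, and the difference of 2.18 ± 0.12 between them had adjusted p = 9.1e-11. With any 1 array of the 4 groups left out, the differences between the lines were called for all 26 mitosis genes and for 23 or 24 replication genes. Of 20 sterol genes 14 had a higher response in Tsc1-null cells, 1 a lower one and 5 were not called, with medians of -0.67 in Tsc1-null and -1.24 in Tsc2-null cells. The lower one was Insig1, which retains SREBP in the endoplasmic reticulum, at -0.27 in Tsc1-null and 0.41 in Tsc2-null cells, named after its values were seen. Fdps, which makes farnesyl diphosphate, differed by -0.52 in Tsc1-null and -1.29 in Tsc2-null cells. Glycolysis gave medians of -0.69 in Tsc1-null and -1.12 in Tsc2-null cells, with 7 genes higher in response and 1 lower. Of 18 genes of insulin-like growth factors, BMP and Id proteins 10 had a lower response in Tsc1-null cells and 1, Bmp4, a higher one, with medians of 0.04 in Tsc1-null and 1.13 in Tsc2-null cells. Among the lower ones, Igfbp5 fell in both lines, at -3.55 in Tsc1-null and -2.39 in Tsc2-null cells.

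The largest single differences between the lines ran in both directions (means ± SD, n = 2 arrays after rapamycin and 3 with vehicle). Angpt1, a ligand of the endothelial receptor Tek, averaged 10.88 ± 0.10 after rapamycin and 9.91 ± 0.09 with vehicle in Tsc1-null cells, and 5.66 ± 0.41 and 8.07 ± 0.06 in Tsc2-null cells, and its response differed by 3.37 ± 0.20 (adjusted p = 1.5e-10). The replication factor Dscc1 (3.29), Depdc1a (3.26), the repair factor Rad51ap1 (2.73), Fst (2.72) and the condensin subunit Ncapg2 (2.66) followed. In the other direction Id1, an inhibitor of differentiation factors, averaged 7.86 ± 0.16 after rapamycin and 8.18 ± 0.10 with vehicle in Tsc1-null cells, and 11.90 ± 0.01 and 8.57 ± 0.03 in Tsc2-null cells. Its response differed by -3.65 ± 0.17 (adjusted p = 7.6e-12). Mt2, a metallothionein, averaged 13.95 ± 0.00 after rapamycin and 13.35 ± 0.34 with vehicle in Tsc1-null cells, and 12.96 ± 0.02 and 8.94 ± 0.11 in Tsc2-null cells. Mt2 was thus already high in Tsc1-null cells under vehicle. Fabp4 (-3.13), the actin regulator Daam2 (-2.87), Igfbp3 (-2.61) and Arhgap44 (-2.31) closed this set. Cth fell by 3.06 in Tsc1-null cells and fell by 0.87 in Tsc2-null cells. Car9 fell by 1.87 in Tsc1-null cells while it differed by -0.12 in Tsc2-null cells (adjusted p = 0.53). Both responses differed between the lines, by -2.19 ± 0.15 for Cth and -1.75 ± 0.17 for Car9 (adjusted p = 4.7e-10 and 1e-07).

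**Figure D5:**
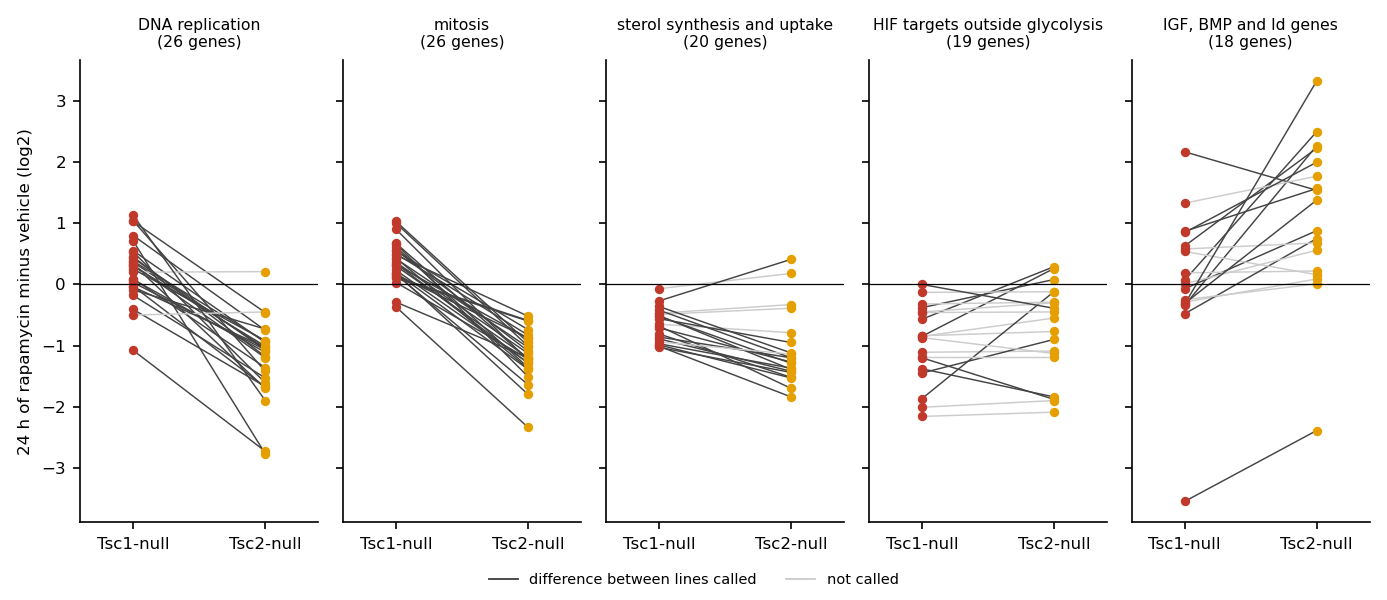
Log2 difference of 24 h of rapamycin minus vehicle for each gene of 5 lists, with Tsc1-null cells on the left (red) and Tsc2-null cells on the right (orange), joined by a dark line where the difference between the lines was called. All 26 mitosis genes and 25 of 26 replication genes fell in Tsc2-null cells, where the mitosis median is -1.20, against 0.35 in Tsc1-null cells.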

How the data were processed

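Gene expression was measured on 25 Affymetrix mouse expression arrays of 11 groups. The deposited log2 values, 2.72 to 14.74 on 45101 probe sets, were made with RMA, and limma was used by the authors, per the submitters' processing notes, with no versions given. A second deposited table holds log2 ratios to the wild-type vehicle. All sample columns matched a label, with 0 left over. Probe sets with 1 gene symbol in the platform annotation (34945, against 932 with several, 9160 with none and 64 controls) gave 18193 genes. Of these, 9010 had more than 1 probe set, and the one with the highest mean was used. Probe sets of 89 genes were called in opposite directions at 24 h, 4 of them in the gene lists (Gmps, Npc2, Psmb1 and Wipi2). Symbols were matched by gene ID to RefSeq tables for 34741 probe sets.

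limma 3.58.1 (R 4.3.3) was fitted over all 25 arrays with 1 mean per group, moderated two-sided tests and Benjamini-Hochberg adjustment over 18193 genes at 0.05. Arrays of a group are labelled as biological replicates of 1 line. The comparison, the 40 gene lists (674 genes) and the tests were chosen with earlier results of these data known. Named genes were the 12 largest rises and falls at 24 h among called genes with a mean of at least 7 in the higher group and no overlap between groups, the list members with the smallest p or those that fill a role in a pathway, fixed genes of the pathway, and by the same rule the 6 largest differences between lines, 5 between 24 h and 12 h, and 4 at each earlier time, in each direction. Alternatives were quantile normalization, median centring, a filter that dropped the dimmest 40% of genes, 64 as an addend before log2, other uses of probe sets, limma with trend, fewer groups in the fit, other thresholds, the replicate number as a block, 1 array left out in turn, and the authors' ratios. The fit was tested on simulated data. Motifs were searched on both strands of RefSeq promoter windows (GRCm38.p6), without a test.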

Additional observations from a re-analysis of the deposited data

Results flagged for a closer look

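Of the 186 genes named in the report, 97 had a 24 h response to rapamycin that differed between the Tsc1-null and Tsc2-null lines by the interaction of line and drug in limma (adjusted p under 0.05 over 18193 genes). Values here are the Tsc1-null response minus the Tsc2-null response on the log2 scale, so a positive value means a higher response in Tsc1-null cells. The lines also differ in p53, which Tsc1-null cells keep and Tsc2-null cells lack, so the lost gene, p53 and the line cannot be told apart. The free-text time of the treated arrays differs too, at 14 h for Tsc1-null and 24 h for Tsc2-null cells, and its part was not tested. The difference was no longer called for 15 of the 97 with 1 array left out: Ciart, Fasn, Hif1a, Map1lc3a, Mthfd2, Myc, Myl9, Neu1, Pdgfra, Pkm, Ptx3, Scd1, Sqle, Tsc1 and Ulk2.

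Cell cycle genes stood apart in one direction. Top2a (2.18), Mcm5 (2.46), Mcm7 (1.49), Nusap1 (2.02), Ube2c (1.98), Ncapg2 (2.66), Depdc1a (3.26), Dscc1 (3.29) and Rad51ap1 (2.73) all had positive differences from vehicle in Tsc1-null and negative ones in Tsc2-null cells. Rrm2 fell in both lines, by less in Tsc1-null cells (1.65). The cyclins split, at 0.65 for Ccnd1 and -1.26 for Ccnd2. The p53 targets Cdkn1a (0.74) and Gadd45a (1.21) fell less in Tsc1-null cells, and Btg2 fell more (-0.63). In the authors' deposited table of ratios the difference for Cdkn1a was reversed, at -0.68.

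Contractile and matrix genes differed in both directions. The response was higher in Tsc1-null cells for Acta2 by 1.34, Ankrd1 by 2.15, Myl9 by 0.68, Ccn1 by 1.39, Col8a1 by 2.22 and Thbs2 by 1.26. For Myl9 it was -0.04 in the authors' deposited table. It was lower for Tagln (-0.84), Loxl1 (-0.79) and Tnc (-0.93). Among secreted proteins it was higher for Angpt1 (3.37), Fst (2.72), Wnt5a (1.25), Sfrp2 (1.13), Fgf7 (1.0), Bmp4 (0.63), Ptx3 (0.54) and Cxcl5 (2.26), and lower for Csf1 (-0.68) and Il6 (-0.82). These directions were not kept for Ptx3, at -0.01 with all probe sets averaged, and for Il6, at 0.22 in the authors' deposited table. The sulfatase gene Arsj (1.30), Kank3 (1.68) and Ifit2 (0.64) also had the higher response in Tsc1-null cells.

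Growth factor signalling gave some of the lowest values. Id1 (-3.65), Id3 (-1.15), Igfbp3 (-2.61), Igfbp5 (-1.15), Dusp6 (-2.10) and Spry2 (-1.11) were lower in response in Tsc1-null cells. Jun (1.03), Pdgfrb (0.74) and Myc (0.47) were higher and Pdgfra lower (-0.48). Within the mTOR pathway the values were 0.62 for Rictor, 0.83 for Ddit4, 0.61 for Tsc1 and 1.51 for Tsc2, the last with a difference from vehicle of -1.51 in Tsc2-null cells. Fbxo32 (-1.44), Crebrf (-0.95) and Tcp11l2 (-0.92) rose in both lines, by less in Tsc1-null cells. In the authors' deposited table the difference for Fbxo32 was reversed, at 1.12, and that for Igfbp5 was 0.01. Autophagy and lysosome genes gave -0.62 for Ulk2, 0.37 for Map1lc3a and 0.37 for Neu1.

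Metabolic genes split by pathway. Lipid genes fell less in Tsc1-null cells, with 0.83 for Mvd, 0.77 for Fdps, 0.40 for Sc5d, 0.39 for Sqle, 0.35 for Cyp51, 0.68 for Acss2, 0.45 for Fasn and 0.36 for Scd1. The factor Srebf1 had a response 0.74 higher, and Insig1 one that was lower (-0.68). Genes of glucose use and hypoxia gave 0.58 for Pfkp, 0.29 for Pkm, 0.48 for Pgd, 0.46 for Higd1a, 0.69 for Bnip3 and 0.38 for Hif1a, against -1.75 for Car9. Amino acid genes fell more in Tsc1-null cells for Cth (-2.19), Slc7a3 (-2.06), Atf5 (-1.45) and Gpt2 (-1.27), beside the stress hormone Fgf21 (-1.74), but less for Mthfd2 (0.41). The NRF2 targets Gsta4 (-2.26) and Nqo1 (-0.95) and the ATP synthase gene Atp5g1 (-0.47) had lower responses in Tsc1-null cells. Ctps (0.50) and Pdk4 (0.91) had higher ones.

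Further genes with lower responses in Tsc1-null cells were Mt2 (-3.41), Fabp4 (-3.13), Daam2 (-2.87), Arhgap44 (-2.31), Cpeb1 (-2.23), Car6 (-1.87), Tcim (-1.62), Aspa (-0.96), Mfsd2a (-0.93) and Slpi (-0.85). Fubp1 (0.88) and Ciart (0.38) had higher ones.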

How the results depend on the processing

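Arrays were few, with 2 treated and 3 vehicle, and this number limits the precision. In data simulated from these arrays, limma recovered 10 of 50 genes changed by 0.3 on the log2 scale, 34 of 50 at 0.5, and all 50 at 1 and at 2. Among the unchanged genes it made 8 false calls. No other genes were changed and noise was drawn independently for each gene and array, while 5378 genes were called in the data. These rates therefore do not carry over directly to the data. Testing every probe set gave 3760 higher and 5363 lower at 24 h and 5826 that differed between the lines. A fold of at least 1.5 beside the threshold left 695 higher and 972 lower. Fitted on its own 4 arrays, the 24 h against 12 h comparison called 0 genes by limma, with 2856 at an unadjusted p under 0.05. Why the calls were lost was not tested. Leaving out 1 array at a time gave 1626 to 2013 higher and 2464 to 3139 lower at 24 h, 2764 to 3613 that differed between the lines, and 246 to 765 between 24 h and 12 h. Of the 5378 genes called at 24 h, 74.7% to 89.5% were called again in those fits, 93.9% after quantile normalization and 64.9% in the authors' deposited table of log2 ratios, where 61.4% of probe sets are listed at 0 on every array and 9065 genes could be tested. The share of calls that were higher was 39.2%, against 46.6% after quantile normalization and 48.1% in that table. Of 2780 refits of named genes at 24 h, 2736 kept the main result, 28 lost a call and 16 gained one. The main result is a call with its direction or, for uncalled genes, no call whatever the sign. Calls lost in the authors' table were those of Aspa, Atp5b, Col1a1, Cpeb1, Ctsb, Dusp6, Fdps, Id1, Igfbp3 and Insig1. With all probe sets averaged those of Col1a1 and Hspa5 were lost.

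In the authors' deposited table the median of the TSC and mTOR list was 0.02 in place of -0.13 and that of the purine list 0.01 in place of -0.15, and members counted in a direction were fewer: ribosomal 3 of 7, collagen and matrix 6 of 11, lower clock genes 4 of 8. There the difference between the lines turned for Cdkn1a (-0.68), Fbxo32 (1.12), Igfbp5 (0.01), Il6 (0.22) and Myl9 (-0.04), and with all probe sets of a gene averaged it was -0.01 for Ptx3. The cause was not tested. With the replicate block, 2000 genes were higher and 2905 lower at 24 h, 3221 differed between the lines and 1229 between 24 h and 12 h, and 7 in place of 11 p53 targets were lower. Same-numbered arrays deviated together among the 2 h, 12 h and 24 h groups (r = 0.449 for 24 h and 2 h, 0.387 for 24 h and 12 h, 0.303 for 12 h and 2 h), but not in pairs with vehicle or 6 h arrays (-0.083 to 0.057, with 0.057 for 24 h and vehicle), and the labels name no shared batch, so the numbers were not taken to pair the arrays.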
